A study of Mus musculus with 4 samples.

Results

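Fast signalling between neurons passes through receptors that are themselves ion channels, and the genes described here encode their subunits. They were picked out by symbol, from the families *Gria*, *Grik*, *Grin*, *Grid*, *Gabr*, *Glra*, *Glrb* and *Chrn*, by a rule that uses no measured value, although these families were chosen with earlier results of these data known. The count files list 23420 gene symbols, and 58 of these are such subunits. Of the 58, 37 had at least 10 counts in at least 2 libraries and were tested. None of the 37 passed through libraries of 1 genotype alone. RNA-seq compared WT with *Patz1* KO (Patz1 -/-) motor neurons (MNs), each with 2 libraries. The WT cells came from E14, a mouse embryonic stem cell (mESC) line. The *Patz1* KO cells were derived by CRISPR/Cas9 editing of WT E14 mESCs, through lines that each grew from a single clone. The labels do not name the clone behind a library, so the genotype and any other property of that clone cannot be told apart. All 4 cultures grew as embryoid bodies and were then patterned with 1 µM retinoic acid and 0.5 µM smoothened agonist, which direct mESCs towards cervical MNs. PATZ1 is a zinc finger protein that binds DNA, and the study asked how its loss changes gene expression in these MNs.

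Each ligand-gated receptor is a ring of subunits around a pore, and the subunits present set which transmitter opens it, for how long it conducts and which ions pass. Glutamate receptors of the AMPA, kainate and NMDA types let in cations and excite the cell, whereas GABA-A and glycine receptors pass chloride and, in mature neurons, inhibit it. Nicotinic receptors are opened by acetylcholine, the transmitter that MNs release onto muscle and onto Renshaw cells of the spinal cord.

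The total count per library ranged from 14769104 to 15728158 in WT and from 17402342 to 23881522 in *Patz1* KO. Values are given as counts or as CPM (counts scaled to library size) after TMM scaling, which also corrects for composition. Replicates differed beyond sampling noise, and their chi-square per gene was 10.5 in WT and 23.4 in *Patz1* KO. The targeted gene, *Patz1*, had 1363 and 1499 counts in WT against 1154 and 714 in *Patz1* KO. This was a change of -1.04 on the log2 scale (with an SE, the standard error, of 0.095, adjusted p = 9.93e-08; quasi-likelihood test of edgeR), and its transcripts were still counted in the *Patz1* KO libraries. The library titles name ESCs, whereas the source and cell type labels give MNs made from them, so the cell type was checked with markers. Of 4 pluripotency markers 3 were tested and none was called, and the 4 summed to 6.04 to 7.17 CPM in WT and 4.99 to 6.20 CPM in *Patz1* KO. All 8 MN markers and all 8 pan-neuronal markers listed were detected, and 7 of the 8 MN markers were higher in *Patz1* KO, with a summed level of 600 to 644 CPM in WT and 939 to 1032 CPM in *Patz1* KO. Pan-neuronal markers summed to 3264 to 3503 CPM in WT and 4229 to 4631 CPM in *Patz1* KO, of which *Tubb3* alone gave 1570 to 1777 CPM and 2202 to 2639 CPM. Of the 8, 4 were higher, 3 were not called and *Snap25* was lower (log2 fold change -0.29). By contrast, all 6 mesenchyme markers were lower, summing to 154 to 170 CPM in WT and 22.3 to 22.6 CPM in *Patz1* KO, as were 5 of 7 primitive endoderm markers (42.2 to 49.7 CPM in WT against 7.30 to 7.33 CPM). Of 5 astrocyte markers the 2 with enough counts were higher (48.7 to 53.6 CPM summed in WT, 124 to 128 CPM in *Patz1* KO), while *Gfap*, which defines mature astrocytes, had 0 or 1 counts in every library. In bulk RNA, fewer cells of a type and less RNA per cell cannot be told apart, and the part of these marker shifts in the results for the receptor genes was not tested.

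Subunit genes of glutamate and glycine receptors made up most of the rises in *Patz1* KO MNs, and the 3 falls were of nicotinic genes. Genes were called where edgeR's quasi-likelihood test gave an adjusted p (Benjamini-Hochberg, over all 14394 genes tested) below 0.05. By this rule 16 of the 37 subunit genes differed between genotypes (43.2%), against 47.4% of all genes, so the share called was near that of the whole table. Of the 37, 13 were higher in *Patz1* KO MNs (35.1%), against 24.0% of all genes, and 3 were lower (8.11%), against 23.4%. The median log2 fold change over the 37 genes was 0.13, and over all genes tested it was -0.0014. In none of the 16 did the range of the *Patz1* KO libraries overlap that of the WT libraries. Genes picked by the test are likely to separate in this way, so this adds no support to the calls. By transmitter, 8 of 18 ionotropic glutamate receptor genes, 2 of 8 tested GABA-A genes, 2 of 3 tested glycine receptor genes and 1 of 8 tested nicotinic genes were higher, and all 3 genes that were lower were nicotinic. DESeq2's Wald test called 12 of the 16, without *Chrna1*, *Chrna5*, *Chrnb4* and *Gabrb2*. The number that DESeq2 called over all genes is not given here, so these 12 cannot be set against the whole table. The number called fell to 12 without WT replicate 1 and to 10 without WT replicate 2, and over all genes it fell from 6822 to 4742 and 4369. The 3 lower genes became 6 without *Patz1* KO replicate 1 and 1 without *Patz1* KO replicate 2, without WT replicate 2 or with DESeq2, and *Chrna3* was lower in each of these.

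**Figure D1:**
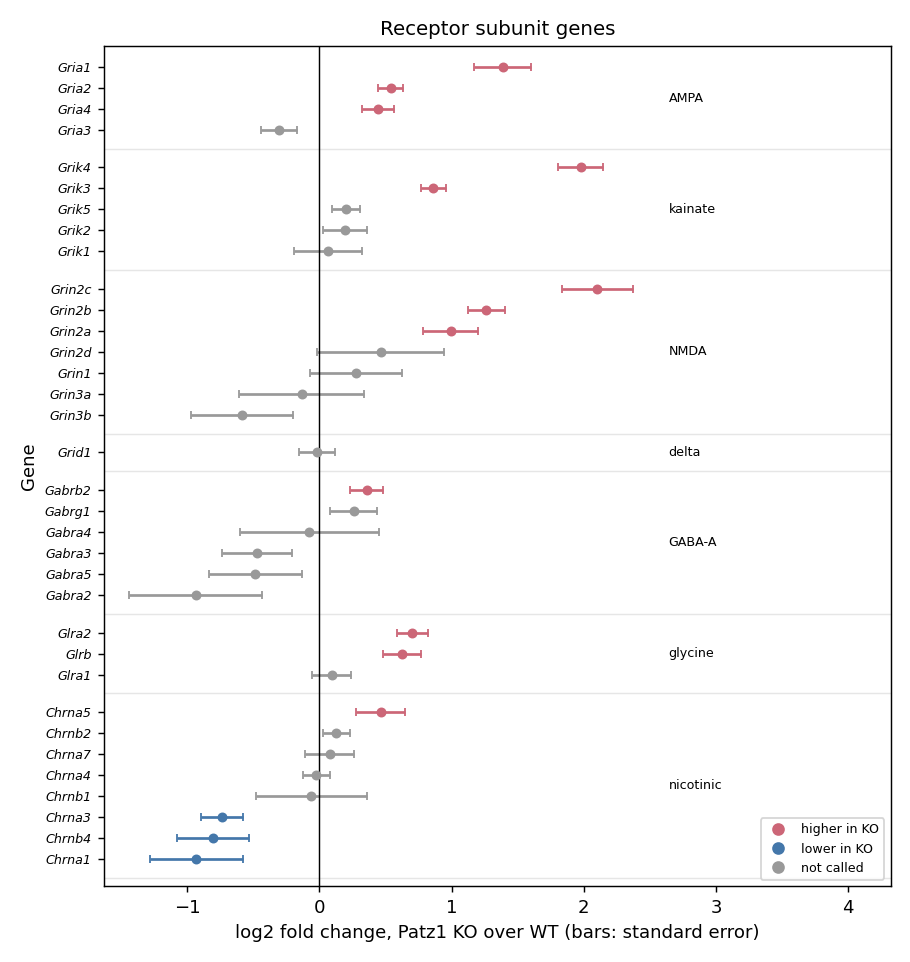
Log2 fold change (*Patz1* KO over WT, x axis) of 34 tested subunit genes, grouped by receptor class, with bars of 1 standard error. Red points mark 12 genes called higher, blue points the 3 called lower and grey points 19 not called, and *Grin2c* and *Grik4* lie farthest to the right, near 2.

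The starts of 3 of these genes are shown because they carried the largest changes in either direction that were called in every alternative with no minimum fold, *Grik4* and *Grin2c* among the rises and *Chrna3* among the falls. The windows run from 250 bases before to 50 bases after the start of the RefSeq transcript on GRCm38.p6, and all lie on the minus strand. They are printed 5′ to 3′ on the strand of the gene, and capitals mark matches to the G-rich letters GGGGNGGGG or GGGAGGG on either strand, searched because PATZ1 and related zinc fingers are known for G-rich sites.
*Grik4*, chr9:42944322-42944621: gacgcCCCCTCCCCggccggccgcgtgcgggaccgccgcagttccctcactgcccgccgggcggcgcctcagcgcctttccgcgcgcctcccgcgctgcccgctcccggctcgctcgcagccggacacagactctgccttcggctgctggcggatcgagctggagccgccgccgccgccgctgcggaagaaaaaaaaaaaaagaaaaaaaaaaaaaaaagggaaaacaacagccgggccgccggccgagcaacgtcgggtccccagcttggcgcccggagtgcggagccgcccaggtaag
*Grin2c*, chr11:115267194-115267493: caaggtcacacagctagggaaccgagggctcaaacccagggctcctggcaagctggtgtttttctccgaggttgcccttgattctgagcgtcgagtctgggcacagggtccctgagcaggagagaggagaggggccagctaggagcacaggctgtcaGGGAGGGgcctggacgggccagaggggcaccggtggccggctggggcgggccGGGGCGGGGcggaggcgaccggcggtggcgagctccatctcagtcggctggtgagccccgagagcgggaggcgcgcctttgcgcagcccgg
*Chrna3*, chr9:55026513-55026812: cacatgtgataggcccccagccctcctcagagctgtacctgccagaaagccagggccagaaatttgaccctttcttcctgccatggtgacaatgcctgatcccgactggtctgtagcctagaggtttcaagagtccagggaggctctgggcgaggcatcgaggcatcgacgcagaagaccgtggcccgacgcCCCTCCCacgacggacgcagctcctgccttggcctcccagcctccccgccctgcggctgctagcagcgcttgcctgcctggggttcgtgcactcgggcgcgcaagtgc
In the *Grik4* window both motifs overlap on the opposite strand, starting 245 and 244 bases before the start of the RefSeq transcript. The *Grik4* gene as placed below reaches further upstream than this start. The *Grin2c* window holds GGGAGGG on its own strand 93 bases before the start and GGGGCGGGG 41 bases before it. In the *Chrna3* window GGGAGGG lies on the opposite strand, 58 bases before the start. RefSeq windows were at hand for 41 of the 58 genes. At least 1 of the motifs was in 66.7% of 12 windows of genes called higher and 66.7% of 3 windows of genes called lower. It was also in 66.7% of 15 windows of tested genes that were not called. These windows came from 9, 3 and 14 genes, too few to compare the groups. Taken singly, GGGGNGGGG was in 58.3%, 0% and 26.7% of these windows and in 34.1% of those of all genes tested, and GGGAGGG in 50%, 66.7% and 46.7%, and in 29.4%. Over the windows of all genes tested the share with either motif was 47.3%, and over all 32851 windows 33.6%. A match is a stretch of letters and no measure of binding, which was not analysed here.

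AMPA receptors carry most fast excitation, and the summed level of their 4 genes went from 94.5 and 89.6 CPM in WT to 128 and 123.2 CPM in *Patz1* KO. *Gria1*, which encodes GluA1, a subunit known for its regulated insertion at synapses, had 48 and 47 counts in WT against 182 and 147 in *Patz1* KO. It lies on chromosome 11 of GRCm38 from 57011387 to 57330244. The 2 genotypes did not overlap, and the level rose from 3.09 ± 0.189 to 8.13 ± 0.885 CPM (SD, n = 2 each), or by 1.39 on the log2 scale (SE 0.22, adjusted p = 4.00e-05, edgeR). *Gria2* (chromosome 3, 80681450 to 80802835) encodes GluA2, the subunit that makes AMPA receptors largely impermeable to calcium once its transcript has been edited. This gene had the highest level per kb of exon in the class, with 854 and 824 counts in WT against 1948 and 1311 in *Patz1* KO. It rose from 54.6 ± 3.90 to 79.2 ± 1.58 CPM (SD, n = 2 each), or by 0.54 on the log2 scale (SE 0.094, adjusted p = 0.000139, edgeR). *Gria4*, a subunit of rapid AMPA receptors, had 19.2 and 19.8 CPM in WT and 28.4 and 24.4 CPM in *Patz1* KO (log2 fold change 0.44), and its call was lost without WT replicate 1 (adjusted p = 0.0646, edgeR). For *Gria3* the values lay the other way. Its level was 14.7 and 15.0 CPM in WT and 12.1 and 11.9 CPM in *Patz1* KO, and the difference of -0.31 on the log2 scale missed the threshold (adjusted p = 0.0778, edgeR).

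Kainate receptors are built from *Grik1*, *Grik2* and *Grik3*, which can form channels by themselves, together with *Grik4* and *Grik5*, which bind glutamate tightly but need one of the former to reach the surface. Their summed level went from 110 and 96.9 CPM in WT to 171 and 161 CPM in *Patz1* KO. *Grik4* (chromosome 9, 42518135 to 42944493) had 73 and 64 counts in WT against 442 and 282 in *Patz1* KO. The change was one of the 2 largest among all subunit genes tested, from 4.46 ± 0.619 to 17.5 ± 1.01 CPM (SD, n = 2 each), which is 3.94-fold on the fitted scale (log2 fold change 1.98, SE 0.17, adjusted p = 4.22e-08, edgeR). *Grik3* (chromosome 4, 125490700 to 125714173), the most highly expressed kainate gene per kb of exon over the 4 libraries, had 850 and 777 counts in WT against 2355 and 1601 in *Patz1* KO. It rose from 53.0 ± 5.80 to 96.3 ± 1.24 CPM (SD, n = 2 each), or by 0.86 on the log2 scale (SE 0.097, adjusted p = 1.14e-06, edgeR). The remaining kainate genes were not called, and each changed by no more than 0.20 on the log2 scale. *Grik5* had 36.5 and 32.3 CPM in WT and 42.3 and 36.6 CPM in *Patz1* KO, and its log2 fold change of 0.20 had a 95% interval from -0.027 to 0.43, although it was called higher without *Patz1* KO replicate 2 (adjusted p = 0.00546, edgeR). *Grik2* had 8.33 and 8.93 CPM in WT and 10.2 and 9.54 CPM in *Patz1* KO. *Grik1* was near 3 CPM in every library, from 2.83 to 3.18 CPM.

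NMDA receptors need *Grin1*, their obligatory subunit, and partners of the *Grin2* or *Grin3* type, and *Grin2* subunits set for how long the channel conducts. Over the 7 genes the summed level was 23.2 and 20.4 CPM in WT and 52.1 and 41.0 CPM in *Patz1* KO. *Grin2c* (chromosome 11, 115249169 to 115267243), a subunit best known from cerebellar granule cells, had 38 and 40 counts in WT against 334 and 129 in *Patz1* KO. The *Patz1* KO libraries were far from each other but both well above WT. The mean went from 2.53 ± 0.0251 to 10.7 ± 4.31 CPM (SD, n = 2 each), which is 4.30-fold on the fitted scale (log2 fold change 2.10, SE 0.27, adjusted p = 4.47e-06, edgeR). The log2 fold change was 1.60 at its lowest when any 1 library was left out. *Grin2b* (chromosome 6, 135713233 to 136173511), the prevailing *Grin2* form in the embryonic nervous system, had 144 and 145 counts in WT against 575 and 357 in *Patz1* KO. Its level rose from 9.39 ± 0.388 to 22.5 ± 1.73 CPM (SD, n = 2 each), or by 1.26 on the log2 scale (SE 0.14, adjusted p = 7.34e-07, edgeR). *Grin2a*, the form that prevails in the mature forebrain, rose as well, from 4.36 and 3.46 CPM in WT to 7.72 and 7.87 CPM in *Patz1* KO (log2 fold change 0.99).

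The rise in *Grin2* transcripts was not matched by a call for the obligatory subunit. *Grin1* had 28 and 20 counts in WT against 41 and 36 in *Patz1* KO, and its log2 fold change of 0.28 had a 95% interval from -0.45 to 1.00, so the depth did not settle whether it moved. Per kb of exon its level in WT was 0.162 CPM, below *Grin2a* (0.218), *Grin2b* (0.378), *Grin2c* (0.503) and *Grin3b* (0.692), an order that depended on the length used. Per kb of the longest coding transcript, *Grin1* made up 14.2% of the NMDA class in WT, above *Grin2a* (10.4%) and below *Grin2b* (15.3%). The exons of *Grin1* share 13.47% of their length with *Grin1os* on the other strand, and those of *Grin3b* share 32.13% with *Tmem259*. The strand setting of the counting was not given in the sources used here, so reads of such pairs cannot be told apart. *Grin3b*, a subunit known from spinal and brainstem MNs, had 38 and 32 counts in WT against 51 and 13 in *Patz1* KO. Its *Patz1* KO libraries disagreed, with 2.10 and 0.775 CPM against 2.55 and 2.01 CPM in WT, and the log2 fold change was -0.58 with all libraries and -1.54 without *Patz1* KO replicate 1 (adjusted p = 0.00218, edgeR). *Grin3a* showed the same disagreement, with 1.14 and 1.64 CPM in WT and 1.90 and 0.477 CPM in *Patz1* KO, and without *Patz1* KO replicate 1 it was called lower (log2 fold change -1.53, adjusted p = 0.0148, edgeR). *Grin2d* had between 7 and 30 counts per library and was not called.

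The delta subunits resemble the other glutamate receptor subunits but act mainly as adhesion partners of cerebellins at synapses. *Grid1* (chromosome 14, 34820108 to 35583379) had 212 and 232 counts in WT against 358 and 230 in *Patz1* KO. This was 14.4 ± 0.253 CPM in WT and 14.2 ± 0.752 CPM in *Patz1* KO (SD, n = 2 each), and a log2 fold change of -0.015 (SE 0.14, adjusted p = 0.940, edgeR) had a 95% interval from -0.30 to 0.27.

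**Figure D2:**
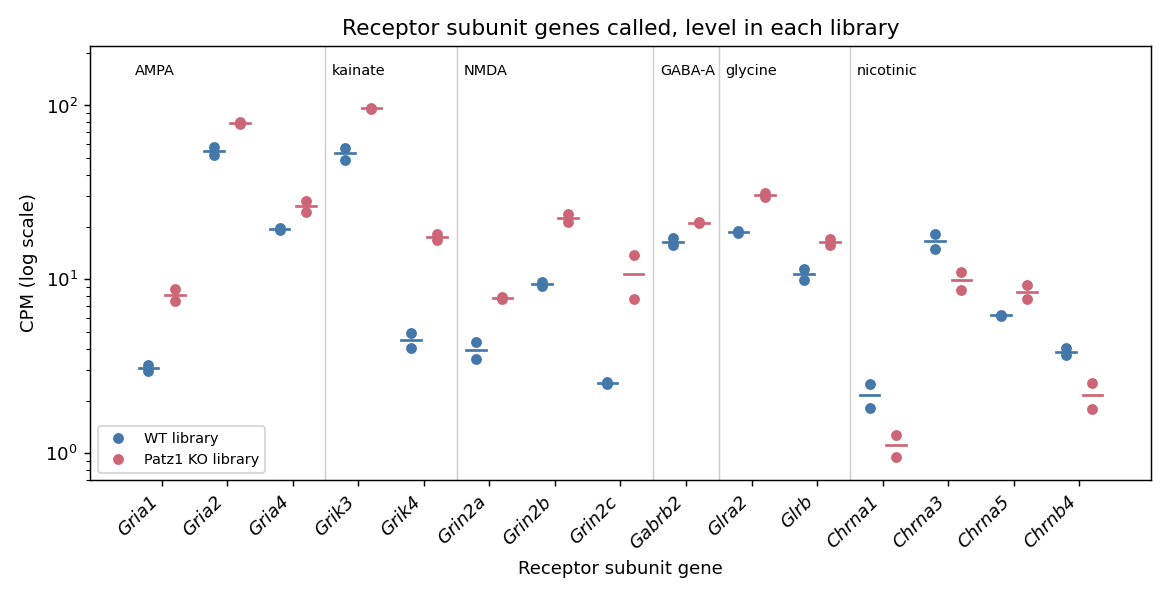
Level in CPM (y axis, log scale) of 15 subunit genes called different, with 1 point for each library, WT in blue and *Patz1* KO in red, and a short line at the mean of each pair. No WT point overlaps a *Patz1* KO point of the same gene, which is likely for genes picked by the test. *Grin2c* has the widest gap between its *Patz1* KO libraries (13.8 and 7.69 CPM).

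GABA-A receptors usually join alpha, beta and gamma subunits. Their summed level was 122 and 122.8 CPM in WT and 139 and 124 CPM in *Patz1* KO. Of the 19 genes 8 had enough counts to be tested, and 2 were higher (25.0%, against 24.0% of all genes). None was lower, and the share called was 25.0%, against 47.4% of all genes. *Gabrb2*, a beta subunit, had 17.3 and 15.7 CPM in WT and 21.3 and 20.98 CPM in *Patz1* KO (log2 fold change 0.36). The rise was small, at 1.28-fold. Its call was lost without WT replicate 1 (adjusted p = 0.0761, edgeR), without WT replicate 2 (adjusted p = 0.269, edgeR) and with DESeq2 (adjusted p = 0.107).

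None of the 4 tested alpha subunit genes was called. All had a negative log2 fold change, except that *Gabra4* came to 0.0066 with DESeq2. *Gabra3*, an alpha subunit of immature neurons, had 4.16 and 3.46 CPM in WT and 3.09 and 2.32 CPM in *Patz1* KO (log2 fold change -0.47). *Gabra2* went with 10 and 16 counts in WT against 11 and 7 in *Patz1* KO (log2 fold change -0.93, adjusted p = 0.137, edgeR), and *Gabra5*, the alpha subunit of many extrasynaptic receptors, with 23 and 32 counts in WT against 29 and 23 in *Patz1* KO (log2 fold change -0.48). For *Gabra4* the counts were 15 and 11 in WT against 10 and 22 in *Patz1* KO, and its direction turned with the library left out. *Gabrg1* had 7.99 to 8.46 CPM in WT and 8.34 to 11.1 CPM in *Patz1* KO, with overlapping genotypes, and was called higher without *Patz1* KO replicate 2 (adjusted p = 0.0215, edgeR). The 11 untested genes, among them the cerebellar genes *Gabra6* and *Gabrd*, the retinal rho genes *Gabrr1*, *Gabrr2* and *Gabrr3*, and *Gabrb1*, had at most 7 counts in any library, and *Gabra6* had 0 in all 4.

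Glycine receptors carry much of the inhibition in the spinal cord. Their summed level went from 43.3 and 41.3 CPM in WT to 62.7 and 58.0 CPM in *Patz1* KO. *Glra2* (chromosome X, 165129017 to 165327393), the alpha subunit of embryonic glycine receptors, had 275 and 302 counts in WT against 762 and 496 in *Patz1* KO. It rose from 18.7 ± 0.375 to 30.5 ± 1.33 CPM (SD, n = 2 each), or by 0.70 on the log2 scale (SE 0.11, adjusted p = 6.03e-05, edgeR). *Glrb*, which ties glycine receptors to the scaffold protein gephyrin, rose from 11.5 and 9.88 CPM in WT to 17.0 and 15.9 CPM in *Patz1* KO (log2 fold change 0.63), and narrowly missed the threshold without WT replicate 2 (adjusted p = 0.0513, edgeR). *Glra1*, the alpha subunit of adult receptors, had 12.9 and 12.1 CPM in WT and 14.2 and 12.3 CPM in *Patz1* KO, and its log2 fold change of 0.093 had a 95% interval from -0.21 to 0.40. *Glra3* had no count in any library. *Glra4* had 7 and 5 counts in WT against 1 and 4 in *Patz1* KO and was not tested.

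Nicotinic genes moved in both directions, and their summed level was 188 and 179 CPM in WT and 197 and 169 CPM in *Patz1* KO. The highest levels per kb of exon belonged to the subunits of the main high-affinity nicotinic receptor of the brain, and neither was called. *Chrna4* (chromosome 2, 181018380 to 181043546) had 932 and 839 counts in WT against 1422 and 919 in *Patz1* KO, which gave 57.7 ± 6.93 and 56.7 ± 2.76 CPM (SD, n = 2 each). Its log2 fold change was -0.022 (SE 0.10, adjusted p = 0.878, edgeR) with a 95% interval from -0.24 to 0.19. Its usual partner, *Chrnb2*, had 85.9 and 88.7 CPM in WT and 106 and 85.1 CPM in *Patz1* KO, and was called higher only without *Patz1* KO replicate 2 (log2 fold change 0.28, adjusted p = 0.00220, edgeR) among the libraries left out. The exons of *Chrnb2* share 16.29% of their length with *Adar* on the other strand. *Chrna7*, which forms receptors by itself, had 6.73 to 7.99 CPM over all libraries and was not called.

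The genes that fell were those of the receptor found in autonomic ganglia, *Chrna3* and *Chrnb4*, and the muscle subunit *Chrna1*. *Chrna3* had 18.3 and 15.0 CPM in WT and 11.1 and 8.70 CPM in *Patz1* KO, which is 1.66-fold higher in WT (log2 fold change -0.74), and it was called in every alternative with a test at no minimum fold. *Chrnb4* had 60 and 58 counts in WT against 61 and 30 in *Patz1* KO, which is 4.03 and 3.65 against 2.52 and 1.79 CPM (log2 fold change -0.80). It was not called with DESeq2 (adjusted p = 0.126), nor in edgeR's test without WT replicate 1 (adjusted p = 0.129), without WT replicate 2 (adjusted p = 0.0646) or without *Patz1* KO replicate 2 (adjusted p = 0.0682). *Chrna5*, an accessory subunit that joins the products of its neighbours, moved the other way, from 6.18 and 6.23 CPM in WT to 9.32 and 7.69 CPM in *Patz1* KO (log2 fold change 0.46, adjusted p = 0.0489, edgeR). This call sat just inside the threshold. It was lost without *Patz1* KO replicate 1 (adjusted p = 0.223, edgeR), without WT replicate 1 (adjusted p = 0.207, edgeR), without WT replicate 2 (adjusted p = 0.204, edgeR) and with DESeq2 (adjusted p = 0.187).

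*Chrna1*, which builds the acetylcholine receptor of the neuromuscular junction, had 27 and 40 counts in WT against 31 and 16 in *Patz1* KO, which is 1.81 and 2.52 against 1.28 and 0.954 CPM (log2 fold change -0.93, adjusted p = 0.0383, edgeR). Its call was lost without WT replicate 2 (adjusted p = 0.333, edgeR), without *Patz1* KO replicate 2 (adjusted p = 0.0825, edgeR) and with DESeq2 (adjusted p = 0.201). Of 7 skeletal muscle markers only *Mylpf* had enough counts to be tested and it was not called, *Ckm* had 0 counts in every library, and the summed level of the 7 was 3.29 to 3.84 CPM in WT and 3.96 to 4.95 CPM in *Patz1* KO. The muscle partner *Chrnb1* was at 0.940 and 1.64 CPM in WT and 0.908 and 1.67 CPM in *Patz1* KO and was not called. The other muscle subunits *Chrnd*, *Chrne* and *Chrng* had at most 7 counts in any library. *Chrna2*, a marker of Renshaw cells in the spinal cord, had between 3 and 5 counts per library. *Chrna9* and *Chrna10*, known from hair cells, had at most 4 counts, and *Chrna6* and *Chrnb3*, known from dopamine neurons, had none.

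Subunit make-up was described within each class as the share of counts per kb of exon, since longer transcripts give more counts. Such shares are relative, and a gene can lose share without a lower level. Among kainate genes the shares of the tight-binding pair went in opposite directions. *Grik4* made up 5.36% and 5.02% of the class in WT against 13.1% and 13.0% in *Patz1* KO, and *Grik5* 46.1% and 46.4% against 35.1% and 32.6%, although the level of *Grik5* was not lower (log2 fold change 0.20, not called). With *Grik3* at 41.0 ± 0.730% in WT and 47.7 ± 1.83% in *Patz1* KO (SD, n = 2 each), the leading kainate gene was *Grik5* in WT and *Grik3* in *Patz1* KO, an order that depended on the length used: without length scaling *Grik3* led in both genotypes, and per kb of the longest coding transcript *Grik5* also led in *Patz1* KO replicate 1 (41.4% against 39.9%). In the NMDA class *Grin2c* went from 21.5% and 25.0% in WT to 51.9% and 44.5% in *Patz1* KO, whereas *Grin3b* went from 32.8% and 30.5% to 12.1% and 6.85%. The level of *Grin3b* was not called, and 32.13% of its exon length is shared with *Tmem259*. Reads of that pair cannot be told apart here, so the share of *Grin3b*, and through the class sum those of the others, are uncertain. On counts without length scaling *Grin2b* led in both genotypes, at 43.1% and 48.7%. Among AMPA genes, *Gria1* went from 6.09% and 5.76% in WT to 10.2% and 12.5% in *Patz1* KO and *Gria3* from 17.0% and 18.0% to 10.1% and 10.5%, while *Gria2* stayed the leading subunit at 40.7 ± 2.01% and 43.0 ± 0.642% (SD, n = 2 each).

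The embryonic alpha subunit led the glycine receptor class. *Glra2* made up 43.7 ± 2.16% of glycine receptor transcripts in WT and 51.6 ± 0.726% in *Patz1* KO, and *Glra1* 38.1 ± 0.500% and 29.3 ± 1.27% (SD, n = 2 each). Among GABA-A genes no alpha subunit exceeded 5.35% of the class in any library, and *Gabrb2* went from 13.7% and 12.4% in WT to 15.0% and 16.5% in *Patz1* KO. For nicotinic genes, *Chrna4* held 36.9 ± 2.85% in WT and 37.1 ± 1.65% in *Patz1* KO (SD, n = 2 each), and the difference was smaller than the spread of the replicates. *Chrna3* went from 10.1 ± 0.985% to 6.13 ± 0.468% and *Chrna5* from 6.39 ± 0.312% to 8.91 ± 0.386% (SD, n = 2 each). These shares are descriptions without a test.

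**Figure D3:**
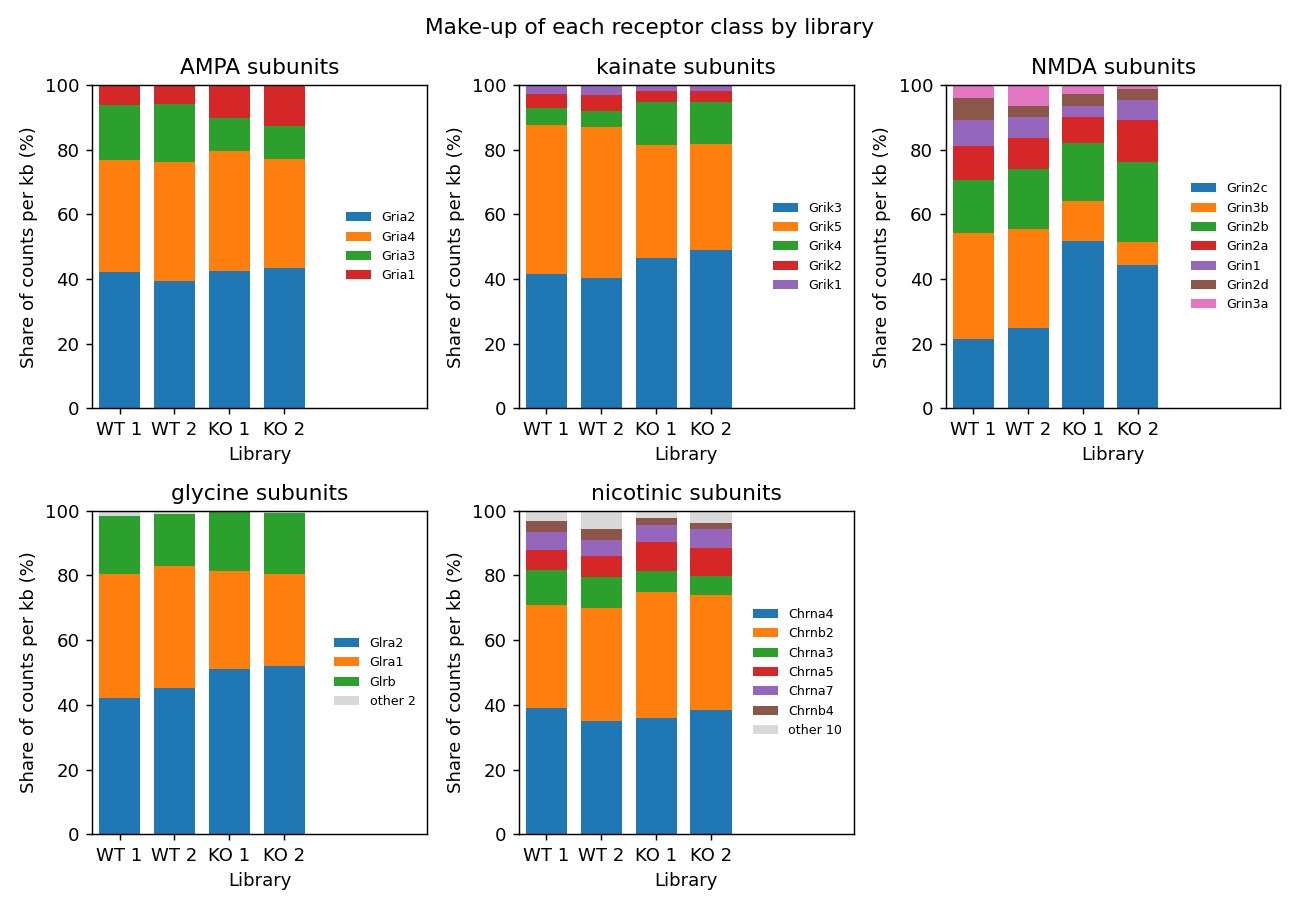
Share (%, y axis) of each subunit gene in its receptor class in each library (x axis), from counts per kb of annotated exon, with 1 panel for each of 5 classes and the smallest genes of large classes pooled in grey. *Grin2c* takes a larger share in both *Patz1* KO libraries than in both WT libraries, and *Grik4* likewise, while *Chrna4* keeps a share of 34.9% to 38.9% in every library.

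Several subunit genes are neighbours in the genome, and neighbours did not always move together. On chromosome 9 of GRCm38, *Chrna5*, *Chrna3* and *Chrnb4* lie within 54980880 to 55048779, with gaps of 2.332 kb and 1.592 kb. *Chrna5*, on the plus strand, was called higher in *Patz1* KO, and *Chrna3* and *Chrnb4*, on the minus strand, were called lower. With DESeq2's Wald test only *Chrna3* among them was still called. *Chrna5* (adjusted p = 0.187, DESeq2) and *Chrnb4* (adjusted p = 0.126, DESeq2) were not, so the opposite movement rests on calls that depend on the test. On chromosome 3, *Gria2* and *Glrb* lie 40.764 kb apart on the same strand and were both higher. The clusters on chromosomes 5 and X held no gene that was called.

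Genes whose products assemble, hold or edit these receptors, or act beside them, were taken from lists of 77 genes in all, of which 60 were tested. Of the 60, 28 were higher (46.7%, against 24.0% of all genes) and 8 were lower (13.3%, against 23.4%), with a median log2 fold change of 0.35. Among auxiliary subunits of AMPA and kainate receptors, 6 of 11 tested genes were higher and 2 lower (72.7% called, against 47.4% of all genes). *Cnih2*, a cornichon that escorts AMPA receptors out of the endoplasmic reticulum, had 329 and 326 counts in WT against 1284 and 678 in *Patz1* KO (log2 fold change 1.14). The 2 that fell were *Neto2*, an auxiliary subunit of kainate receptors (log2 fold change -0.76), and *Shisa7*, known as a partner of GABA-A receptors as well as AMPA receptors (log2 fold change -0.86). *Neto2* thus fell while *Grik3* and *Grik4* rose.

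Glutamate receptor scaffold and trafficking genes were called in 7 of 12 tested cases, 6 of them higher (58.3% called, against 47.4% of all genes). *Shank1*, a core scaffold of the postsynaptic density, had 74 and 59 counts in WT against 307 and 195 in *Patz1* KO (log2 fold change 1.49). *Dlg4*, which encodes PSD-95, rose by less (log2 fold change 0.70). Its relative *Dlg1*, which encodes SAP97 and is also found in non-neuronal cells, was the one that fell (log2 fold change -0.77). At inhibitory synapses 3 of 8 genes were higher and none was lower (37.5% called, against 47.4% of all genes). Among the higher genes were *Nlgn2*, the neuroligin of inhibitory synapses (log2 fold change 0.68), and *Lhfpl4*, which couples GABA-A receptors to it (0.57). Of the 6 tested genes of nicotinic assembly and endplate clustering, 3 were higher and 1 was lower (66.7% called, against 47.4% of all genes). Among the higher genes were the chaperone *Ric3* (log2 fold change 0.42) and *Agrn*, which encodes agrin (0.44). *Ric3* was not called without WT replicate 1 (log2 fold change 0.36). The lower gene was the agrin receptor gene *Lrp4* (log2 fold change -1.09). *Lrp4* had 28.6 ± 1.25 CPM in WT and 13.5 ± 0.772 CPM in *Patz1* KO (SD, n = 2 each).

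Of the 3 genes for RNA editing enzymes, 2 were higher (66.7% called, against 47.4% of all genes). *Adarb1*, whose product ADAR2 edits the *Gria2* transcript, had 208 and 185 counts in WT against 483 and 266 in *Patz1* KO (log2 fold change 0.49). Its call was lost with DESeq2 (adjusted p = 0.0545), and in edgeR's test without *Patz1* KO replicate 1 (adjusted p = 0.0841) or without WT replicate 2 (adjusted p = 0.174). *Adarb2*, a relative without known editing activity, went from 1.58 ± 0.524 to 6.51 ± 1.16 CPM (SD, n = 2 each; log2 fold change 2.02). *Adar* missed the threshold narrowly (log2 fold change 0.24, adjusted p = 0.0502, edgeR), and its exons are the ones shared with *Chrnb2*.

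**Figure D4:**
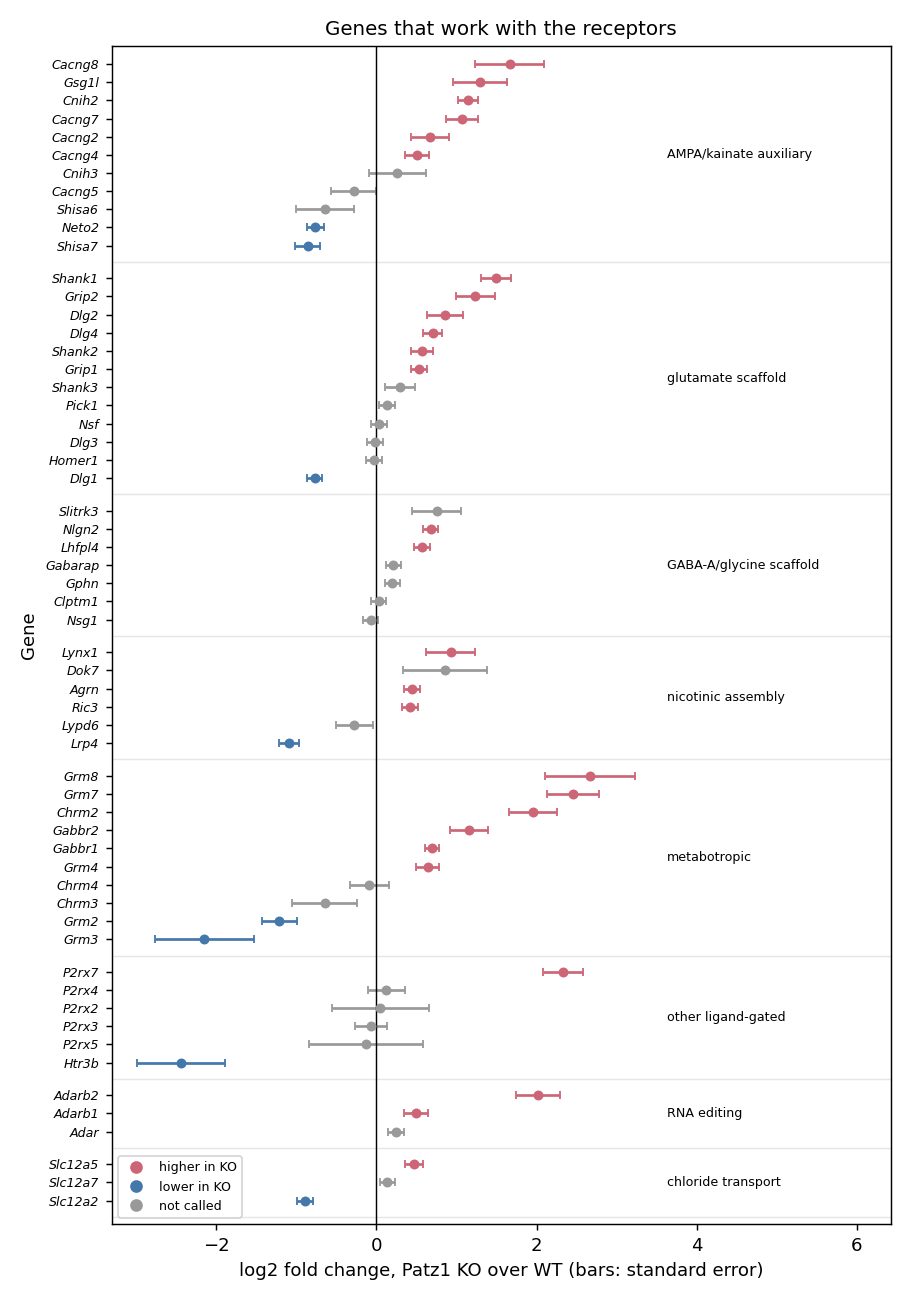
Log2 fold change (*Patz1* KO over WT, x axis) of 58 tested genes that work with the receptors or act beside them, in 8 lists, with bars of 1 standard error. Of these genes 27 are called higher (red) and 8 lower (blue), and each list except inhibitory scaffold and RNA editing holds genes of both kinds.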

How the data were processed

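RNA-seq counts of 2 WT and 2 *Patz1* KO MN libraries were analysed. The authors made ribosomal RNA-depleted stranded libraries, mapped the reads to mm10 and deposited raw counts per gene symbol. The submitters' processing notes name TopHat2 2.1.1, Bowtie2 2.3.1, featureCounts 1.6.2 and DESeq2, and the annotation and strand setting of the counting are not given in the sources used here. The study describes replicates as separate differentiations. Subunit genes were selected by symbol, and these genes and the lists of partner genes and markers were chosen with earlier results of these data known.

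Genes with at least 10 counts in at least 2 libraries were scaled with TMM and tested with edgeR 4.0.16 (glmQLFit and glmQLFTest, R 4.3.3), with Benjamini-Hochberg adjustment over 14394 genes and a threshold of 0.05. The standard error was derived from the F statistic, 95% intervals use its t distribution, and fold changes are *Patz1* KO over WT. The study's own test, DESeq2's Wald test (here DESeq2 1.42.0), other scalings and filters, robust estimation, a minimum change of 1 on the log2 scale, a replicate block and leaving out each library were alternatives. The tests were checked on simulated data. Fits that leave out a library keep 1 library in that group and assume that it varies like the other group. An exact permutation test with 2 libraries against 2 cannot pass 0.05, so none was run. Depth limits genes with few counts most, since 3 counts equal 0.124 to 0.201 CPM, and such limits cover counting error only, since no molecular identifiers were used.

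Exon lengths, positions and overlaps are from GENCODE M21 (GRCm38, the assembly of mm10), in which all 58 symbols were found. Promoter windows are from RefSeq (GRCm38.p6). Full statistics are given for genes called with an absolute log2 fold change of at least 1 and for the gene with the highest mean CPM per kb in each class, other subunit genes are given by levels and log2 fold change, and partner lists by the 3 genes with the smallest p. Some genes counted in the totals are not reported here by themselves.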

Additional observations from a re-analysis of the deposited data

How the results depend on the processing

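Of the 16 subunit genes called, 9 were called in every alternative with a test at no minimum fold, and all 16 kept their direction. Requiring a change of at least 1 on the log2 scale left 711 of the 6822 genes called in the whole table, 2 of the 16 subunit genes (*Grik4* and *Grin2c*), 2 of the 13 higher, 0 of the 3 lower and 6 of the 36 partner genes. DESeq2's Wald test left 1 subunit gene lower, *Chrna3*. Leaving out each library gave 4369 to 7709 genes called, 10 to 18 subunit genes, and 1 to 6 lower. The 6 were found without *Patz1* KO replicate 1, where *Grin3a* and *Grin3b* were among those added. The same-numbered libraries did not deviate together (correlation 0.028 across genes). The sources used here do not say whether the numbers pair the samples, and this correlation cannot settle it. A fit with the replicate block called 7321 genes and 16 subunit genes, and changed no call among the 37.

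Genes that were not called turned in sign under some settings. Without a filter on low counts the log2 fold change was 0.00056 for *Chrna4* and 0.0083 for *Grid1*, and with DESeq2 it was 0.0066 for *Gabra4*. Over the libraries left out it ranged from -0.15 to 0.094 for *Chrna4*, -0.047 to 0.19 for *Chrna7*, -0.50 to 0.40 for *Chrnb1*, -0.034 to 0.28 for *Chrnb2*, -1.01 to 0.63 for *Gabra4*, -0.017 to 0.20 for *Glra1*, -0.069 to 0.046 for *Grid1*, -0.062 to 1.21 for *Grin2d* and -1.53 to 0.45 for *Grin3a*.

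Shares depended on the length used. In WT, without length scaling and with the longest coding transcript, a length chosen after seeing the data, they were 59.3% and 42.9% for *Gria2*, 51.2% and 33.7% for *Grik3*, 11.6% and 20.3% for *Grin2c* and 31.4% and 32.6% for *Chrna4*, and in *Patz1* KO 63.0% and 47.0%, 58.0% and 41.2%, 22.6% and 44.0%, and 31.1% and 32.4%. For *Glra2* the longest coding transcript gave 39.9% in WT and 46.7% in *Patz1* KO, and counts without length scaling gave 50.6% in *Patz1* KO. *Grik5*, not *Grik3*, led the kainate class in WT and in *Patz1* KO replicate 1 with the longest coding transcript. The cause of these differences was not tested beyond the lengths themselves.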

Other observations

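Receptors for the same transmitters that act through G proteins were measured too. Of 15 metabotropic receptor genes 10 were tested, and 6 were higher and 2 lower in *Patz1* KO MNs (80% called, against 47.4% of all genes), with a median log2 fold change of 0.67. *Gabbr1*, a subunit of the GABA-B receptor, had 176 ± 5.57 CPM in WT and 285 ± 11.6 CPM in *Patz1* KO (SD, n = 2 each; log2 fold change 0.69, adjusted p = 4.44e-06, edgeR). *Grm7*, a presynaptic glutamate receptor, had 9 and 17 counts in WT against 118 and 74 in *Patz1* KO (log2 fold change 2.46), and *Chrm2*, the M2 muscarinic receptor of MNs, had 25 and 16 counts in WT against 135 and 80 in *Patz1* KO (log2 fold change 1.96).

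Among purine and serotonin receptor channels, 1 of 6 tested genes was higher and 1 lower (33.3% called, against 47.4% of all genes). *P2rx7*, an ATP-gated channel, had 23 and 25 counts in WT against 212 and 116 in *Patz1* KO (log2 fold change 2.33), and *Htr3b*, a subunit of the serotonin-gated channel, had 18 and 20 counts in WT against 3 and 6 in *Patz1* KO (log2 fold change -2.44). With 1 WT library left out, *Htr3b* had too few counts to be tested. *P2rx4* was not called (log2 fold change 0.12).

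Chloride transporters set the effect of GABA and glycine. Of 5 such genes 4 were tested, and 1 was higher, 1 was lower and 2 were not called (50% called, against 47.4% of all genes). The 2 that were called moved in opposite directions. *Slc12a2*, which encodes the chloride importer NKCC1, fell from 89.6 ± 10.8 to 48.3 ± 2.19 CPM (SD, n = 2 each; log2 fold change -0.89, adjusted p = 1.27e-06, edgeR), and *Slc12a5*, which encodes the neuronal exporter KCC2, rose from 41.6 ± 3.90 to 57.5 ± 8.17 CPM (SD, n = 2 each; log2 fold change 0.47, adjusted p = 0.00197, edgeR). *Slc12a2* is also active outside neurons, and the mesenchyme and endoderm markers given in the report fell with it. Their part in its change was not tested.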
